A study of Homo sapiens with 21 samples.

Results

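The MYC, MAX and MXD network is a set of transcription factors that meet on the same DNA element and pull its genes in opposite directions. It was followed here through 9 genes, MYC, MYCN, MAX, MXD1, MXD3, MXD4, MXI1, MNT and MGA. They were picked by name, with earlier results of these data known. All 9 had a row among the 23368 genes listed and were among the 19694 genes whose value varied between libraries. RNA was sequenced from hTERT-HPNE cells, a pancreatic line immortalized with telomerase, in 7 groups of 3 biological replicates. The groups were untreated cells collected at 0 h, and cells collected 4, 8 or 24 h after 300 μM H2O2, an oxidant, or after the same intervals in 400 ng/ml NCS (neocarzinostatin), which breaks both DNA strands. The comparison asks how gene expression differs between an oxidative and a DNA break stress in a nontransformed cell. The labels name no other genetic change, all samples come from a single line, and all groups grew with serum, EGF and puromycin. Medium was renewed at treatment and no untreated cells were collected later, so time in fresh medium and treatment cannot be told apart in the comparisons with untreated cells.

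MYC is a short-lived activator that binds E-box elements only as a dimer with MAX, and growth factors keep its gene on. MXD1, MXD3, MXD4, MXI1 and MNT also need MAX, but they recruit SIN3 and histone deacetylases and repress. MGA carries a T-box domain besides its MAX-binding domain and belongs to the PRC1.6 repressor complex, which keeps germline genes silent. In many tissues the MXD genes rise as cells leave the cell cycle, whereas MYC drives ribosome production, nucleotide synthesis and entry into S phase.

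The binding element of the network, the E-box CACGTG, was looked for in the RefSeq promoters of the members (GRCh38.p14, 250 bases before and 50 after each annotated start). By symbol, 8 of the 9 members matched, with 13 windows, and a match was found for 2 of them, MXD4 and MNT. Over all genes 8.77% had a window with this element, and 7.26% of the 35116 windows held it. The element is its own reverse complement, so both strands give the same matches. The 250 bases before the start of MXD4 and MNT are shown because their windows held the element. The capitals mark the E-box. The MXD4 stretch is chr4:2262110-2262359 on the minus strand, and the element begins 238 bases before the start. The MNT stretch is chr17:2401061-2401310, also on the minus strand, and the element begins 193 bases before the start. A match describes letters in the reference, and binding was not measured.
MXD4: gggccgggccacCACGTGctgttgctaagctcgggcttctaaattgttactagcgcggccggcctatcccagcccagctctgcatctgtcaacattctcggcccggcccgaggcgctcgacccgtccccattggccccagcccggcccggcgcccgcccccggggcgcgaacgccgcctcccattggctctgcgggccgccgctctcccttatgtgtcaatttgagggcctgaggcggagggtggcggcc
MNT: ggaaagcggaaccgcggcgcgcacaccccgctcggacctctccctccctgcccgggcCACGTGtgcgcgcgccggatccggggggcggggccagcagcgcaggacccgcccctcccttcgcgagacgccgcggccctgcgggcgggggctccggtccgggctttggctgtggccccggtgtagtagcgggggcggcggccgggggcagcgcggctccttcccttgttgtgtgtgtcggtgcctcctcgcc

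The values are DESeq2 rLog values, which are on a log2 scale, adjusted for library size and shrunk most strongly for genes with few reads. The deposited table holds no counts, so depth is unknown and no interval or floor based on it was calculated. Library medians lay between 7.14 and 7.19. Levels are compared between groups for one gene and not between genes, since rLog values are not per length. Where values are called high or low, as for the cell type markers below, this is only a rough reading. A single limma fit over the 7 groups tested the differences, and a gene passed at an adjusted p under 0.05 over all 19694 genes. The exact two-sided permutation test of 3 libraries against 3 cannot go below p = 0.1, which every pair of groups with ranges apart reaches. In bulk RNA, fewer cells expressing a gene and less RNA per cell cannot be told apart. The cells had high values of mesenchymal genes, with a mean over libraries of 17.0 for VIM, 16.3 for COL1A2 and 17.8 for COL1A1. The epithelial and ductal markers were mixed. KRT19 (0.60), EPCAM (-1.76) and CFTR (-1.34) were low and CDH1 was at 3.79. KRT18 (11.6), KRT8 (7.93), MUC1 (6.09) and SOX9 (6.07) lay further up. Among the other pancreatic and blood cell markers, PRSS1, CELA3A, INS and CD3E were listed at 0 in every library. After H2O2, 5 of 8 mesenchymal markers were lower and 2 higher at 4 h, and 5 lower and 1 higher at 8 h. At 24 h all 8 were lower. Of all genes, 19.7%, 18.6% and 19.9% were lower at 4, 8 and 24 h, and 26.2%, 18.8% and 20.2% higher. After NCS, 1 marker was lower and 2 higher at 4 h, and 1 lower and 1 higher at 8 h. At 24 h 3 were lower and 2 higher. Of all genes, 9.72%, 13.3% and 18.4% were lower at 4, 8 and 24 h, and 7.47%, 10.5% and 19.6% higher. The part of these markers in the network's differences was not tested.

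MYC moved in opposite directions in the 2 stresses at 4 h. In untreated cells its rLog values were 10.87, 10.94 and 10.93. At 4 h they were 11.15, 11.08 and 11.15 after H2O2 and 10.55, 10.58 and 10.52 after NCS. The 3 groups did not overlap, with every H2O2 library above and every NCS library below the untreated range. The difference from untreated cells was 0.21 (SE 0.03, adjusted p = 5.63e-05, limma) in H2O2 and -0.36 (SE 0.03, adjusted p = 4.27e-07, limma) in NCS, ratios of 1.16 and 0.777 on the shrunken scale. Between the stresses MYC was 0.58 higher in H2O2 at 4 h (SE 0.03, adjusted p = 2.38e-10, limma), a ratio of 1.49.

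By 8 h the H2O2 libraries held 11.04, 10.90 and 10.99, overlapping the untreated cells, with a difference of 0.062 (95% interval -0.011 to 0.13, adjusted p = 0.188, limma). This rested on one library, since without H2O2 8 h replicate 2 the difference was 0.10 (adjusted p = 0.0221, limma). After NCS, MYC was partly back at 8 h, at 10.77, 10.68 and 10.70, a rise of 0.17 from 4 h (adjusted p = 0.00196, limma, where 13.7% of all genes passed), but stayed 0.19 under untreated cells (adjusted p = 3.07e-04, limma). At 24 h MYC was under the untreated range in both stresses. The H2O2 libraries held 10.78, 10.70 and 10.70, and the NCS libraries 10.65, 10.63 and 10.62. It fell by 0.19 in H2O2 (adjusted p = 1.99e-04, limma) and by 0.28 in NCS (adjusted p = 2.03e-06, limma). The difference between the stresses narrowed to 0.25 at 8 h (adjusted p = 1.27e-05, limma) and 0.094 at 24 h (95% interval 0.022 to 0.17, adjusted p = 0.0592, limma), and the 24 h libraries of the stresses did not overlap. In order of the means, MYC was highest in H2O2 at 4 h, followed by H2O2 at 8 h, untreated cells, H2O2 at 24 h, NCS at 8 h, NCS at 24 h and NCS at 4 h. H2O2 at 8 h and untreated cells overlapped, as did H2O2 at 24 h and NCS at 8 h, while the other neighbours were apart.

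MYCN, the MYC paralogue of neural and embryonic tissue, was at the floor of the table in every library, between -2.3135 and -2.3115, where the lowest value of any gene was -2.3137. It passed no comparison, and 733 genes had a mean under -2.3. Its values carry no usable order of groups. MYCL, the remaining paralogue, was not analysed here.

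MAX, the shared partner, rose in H2O2 at 4 h and 8 h. Its values were 9.82, 9.79 and 9.80 in untreated cells, 9.99, 10.02 and 9.99 after 4 h of H2O2 and 10.08, 10.03 and 10.09 after 8 h. All 6 early H2O2 libraries lay above the untreated range. The difference was 0.20 at 4 h (adjusted p = 2.84e-04, limma) and 0.27 at 8 h (adjusted p = 1.64e-05, limma). At 24 h it was 0.096 (adjusted p = 0.0547, limma), and without H2O2 24 h replicate 3 it was 0.14 (adjusted p = 0.00420, limma). The NCS differences were -0.018, 0.067 and 0.064, with adjusted p between 0.223 and 0.922 (limma) and 95% intervals between -0.098 and 0.15. Under quantile normalization the value at 24 h was 0.12 in NCS (adjusted p = 0.0169, limma) and 0.14 in H2O2 (adjusted p = 0.00666, limma). MAX was higher in H2O2 than in NCS by 0.22 at 4 h (adjusted p = 1.24e-04, limma) and 0.20 at 8 h (adjusted p = 4.13e-04, limma).

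**Figure D1:**
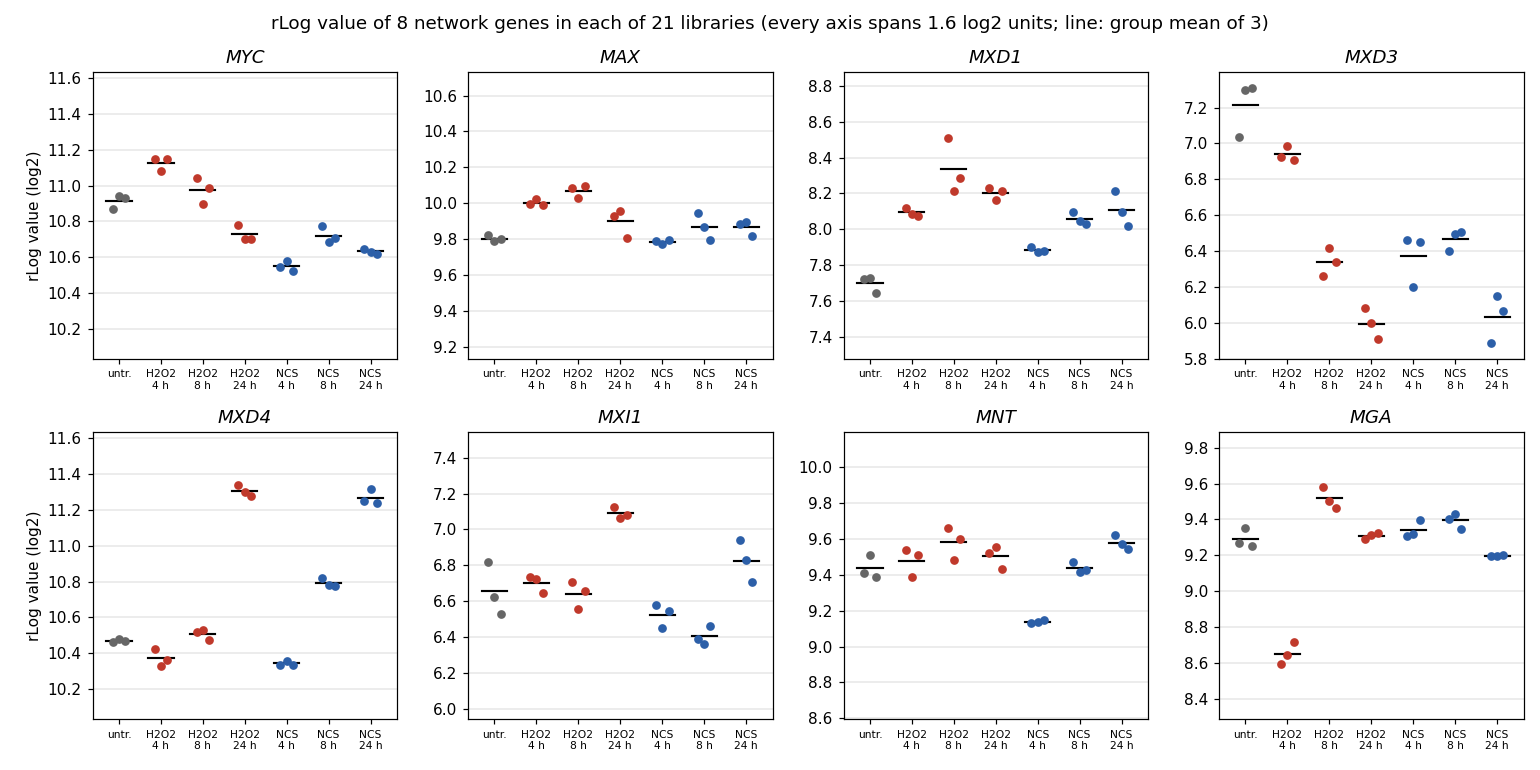
Each panel shows the rLog value (log2, y axis) of one network gene in the 3 libraries of each group (points, x axis) with the group mean (line), untreated in grey, H2O2 in red and NCS in blue. All 3 MYC libraries are above the untreated ones in H2O2 at 4 h and in no other group (11.08 to 11.15), MGA is far below them in H2O2 at 4 h (8.59 to 8.71), and MXD4 is above them at 24 h in both stresses.

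Among the MXD repressors, MXD4 had the largest rise and MXD3 the largest fall. MXD4 was 10.47, 10.48 and 10.47 in untreated cells. At 24 h it was 11.34, 11.30 and 11.28 after H2O2 and 11.25, 11.31 and 11.24 after NCS. Each of the 6 libraries at 24 h was above every other library, while those of the 2 stresses overlapped. The rise was 0.83 in H2O2 (SE 0.03, adjusted p = 2.02e-14, limma) and 0.80 in NCS (SE 0.03, adjusted p = 3.38e-14, limma), and the stresses differed by 0.038 (95% interval -0.019 to 0.094, adjusted p = 0.394, limma).

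MXD4 rose sooner in NCS. At 8 h its NCS libraries held 10.82, 10.78 and 10.77 and its H2O2 libraries 10.52, 10.53 and 10.47. The NCS libraries were all above the untreated range, and the H2O2 libraries overlapped it. The difference from untreated cells was 0.32 in NCS (adjusted p = 4.33e-08, limma) and 0.037 in H2O2 (adjusted p = 0.331, limma), and H2O2 was 0.28 under NCS (adjusted p = 2.30e-07, limma). At 4 h MXD4 fell slightly in both, by 0.098 in H2O2 (adjusted p = 0.00556, limma) and by 0.13 in NCS (adjusted p = 0.00219, limma). Under quantile normalization the H2O2 value at 4 h was -0.052 (adjusted p = 0.131, limma).

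MXD3, which is linked to proliferating cells unlike its relatives, fell at every time in both stresses. It was 7.03, 7.29 and 7.31 in untreated cells, 6.08, 6.0 and 5.91 after 24 h of H2O2 and 5.89, 6.15 and 6.07 after 24 h of NCS. No treated library reached the untreated range. It fell by 1.22 in H2O2 (SE 0.08, adjusted p = 7.58e-10, limma) and by 1.18 in NCS (SE 0.08, adjusted p = 1.36e-09, limma). MXD3 was the only member past a log2 difference of 1, the limit the study set on its DESeq2 fold changes. The differences here are of shrunken rLog values, which understate fold changes, so the measures are not alike. Past that limit and passing were 1.61% of all genes in H2O2 and 1.50% in NCS at 24 h. The stresses differed at 4 h, when MXD3 was 6.92, 6.98 and 6.91 in H2O2 against 6.46, 6.20 and 6.45 in NCS, a difference of 0.57 (adjusted p = 2.11e-05, limma). The fall in H2O2 at 4 h, 0.27 (adjusted p = 0.0122, limma), did not pass without untreated replicate 2 or 3 (-0.23, adjusted p = 0.0575 and -0.23, adjusted p = 0.0620, limma). At 8 h the values were -0.87 in H2O2 and -0.75 in NCS, and the stresses did not pass a test of their difference (-0.13, 95% interval -0.31 to 0.05, adjusted p = 0.283, limma). MXD3 overlaps RAB24 on the same strand and PRELID1 on the opposite one in GENCODE v29, and how the authors' counting treated shared or antisense reads is not given, so its values are uncertain to that extent.

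MXD1, the founding MXD gene, rose in all 6 treated groups. It was 7.72, 7.73 and 7.65 in untreated cells and peaked after 8 h of H2O2 at 8.51, 8.21 and 8.29. All treated libraries lay above the untreated range. In H2O2 the differences were 0.39 at 4 h, 0.64 at 8 h and 0.50 at 24 h, with adjusted p of 2.22e-05, 9.88e-08 and 1.06e-06 (limma). In NCS they were 0.19, 0.36 and 0.41, with adjusted p of 0.0355, 1.40e-04 and 1.36e-05 (limma). The NCS value at 4 h did not pass when any one of its 6 libraries was left out (adjusted p 0.0535 to 0.129, limma). MXD1 was higher in H2O2 than in NCS by 0.21 at 4 h (adjusted p = 0.00744, limma) and 0.28 at 8 h (adjusted p = 0.00105, limma), and by 0.092 at 24 h (adjusted p = 0.330, limma). It overlaps SNRNP27 on the same strand, and its values share the uncertainty given for MXD3. The same holds for MXD4, which overlaps MIR4800 on the same strand. It also holds for MAX, MXI1, MNT and MGA, which overlap noncoding genes on the opposite strand.

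MXI1, another MXD-type repressor, passed against untreated cells in 2 groups. After 24 h of H2O2 it was 7.13, 7.06 and 7.08, against 6.82, 6.62 and 6.53 in untreated cells, a rise of 0.43 (adjusted p = 3.86e-05, limma). After 8 h of NCS it was 6.39, 6.36 and 6.46, lower by a difference of -0.25 (adjusted p = 0.0105, limma) that was -0.17 without untreated replicate 1 (adjusted p = 0.0797, limma). Both groups lay outside the untreated range. MXI1 was higher in H2O2 than in NCS at all 3 times, by 0.18 (adjusted p = 0.0459, limma), 0.24 (adjusted p = 0.0120, limma) and 0.26 (adjusted p = 0.00888, limma). None of these held in every fit that left out a library. The 4 h value failed without H2O2 replicate 1 or 2 or NCS replicate 2 or 3 (adjusted p 0.0732 to 0.175, limma), and also under quantile normalization, without a filter or without a variance trend (adjusted p 0.0510 to 0.0851, limma). The 8 h value failed without H2O2 replicate 1 (0.20, adjusted p = 0.0602, limma), and the 24 h value without NCS replicate 3 (0.21, adjusted p = 0.0584, limma). At 24 h of NCS the difference from untreated cells was 0.17 (adjusted p = 0.0610, limma), and it was 0.25 without untreated replicate 1 (adjusted p = 0.00529, limma) and 0.23 without NCS replicate 3 (adjusted p = 0.0193, limma).

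MNT, the repressor found in most cells whether they divide or not, fell in NCS at 4 h. Its libraries were 9.13, 9.14 and 9.15 there, against 9.41, 9.51 and 9.39 in untreated cells and 9.54, 9.39 and 9.51 in H2O2 at 4 h. The NCS group lay under every other library, and the H2O2 libraries overlapped the untreated ones. The difference was -0.30 in NCS (SE 0.05, adjusted p = 1.45e-04, limma) and 0.041 in H2O2 (adjusted p = 0.521, limma), and 0.34 between the stresses (adjusted p = 9.90e-06, limma). NCS libraries were back in the untreated range at 8 h. Higher values of 0.14 in H2O2 at 8 h (adjusted p = 0.0219, limma), in NCS at 24 h (adjusted p = 0.0245, limma) and in H2O2 over NCS at 8 h (adjusted p = 0.0239, limma) were less firm. The first did not pass without untreated replicate 1 or 3 or H2O2 replicate 1 or 3 (0.10 to 0.13). The second did not pass without untreated replicate 1 or 3 or NCS replicate 1 (0.12 to 0.13). The third did not pass without H2O2 replicate 1 or 3 or NCS replicate 2 or 3 (0.10 to 0.14).

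MGA gave the largest difference between the stresses of any member, at 4 h, through a transient fall in H2O2. Its libraries were 9.27, 9.35 and 9.25 in untreated cells, 8.59, 8.64 and 8.71 after 4 h of H2O2 and 9.31, 9.32 and 9.40 after 4 h of NCS. The H2O2 libraries at 4 h were below every other library, while the NCS libraries overlapped the untreated ones. The difference was -0.64 in H2O2 (SE 0.04, adjusted p = 1.65e-10, limma), a ratio of 0.641, and 0.049 in NCS (95% interval -0.03 to 0.13, adjusted p = 0.488, limma). The stresses differed by -0.69 (adjusted p = 7.25e-11, limma). By 8 h of H2O2 MGA had turned to 9.58, 9.50 and 9.47, above the untreated range, with a rise of 0.87 from 4 h (adjusted p = 8.68e-12, limma, where 45.7% of all genes passed) and a difference of 0.23 from untreated cells (adjusted p = 8.41e-05, limma). At 24 h its H2O2 libraries, 9.29, 9.32 and 9.32, lay within the untreated range.
The later differences between the stresses were small. They were 0.12 at 8 h (adjusted p = 0.0162, limma), lost without H2O2 replicate 1 (0.09, adjusted p = 0.102, limma) or NCS replicate 3 (0.099, adjusted p = 0.0844, limma), and 0.11 at 24 h (adjusted p = 0.0418, limma), lost without any one of its 6 libraries (adjusted p 0.0610 to 0.115, limma). In NCS alone the differences from untreated cells were 0.10 at 8 h (adjusted p = 0.0543, limma) and -0.093 at 24 h (adjusted p = 0.0585, limma). The first was 0.13 without untreated replicate 2 (adjusted p = 0.0228, limma) or NCS replicate 3 (adjusted p = 0.0366, limma), and the second was -0.11 without untreated replicate 3 (adjusted p = 0.0461, limma).

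**Figure D2:**
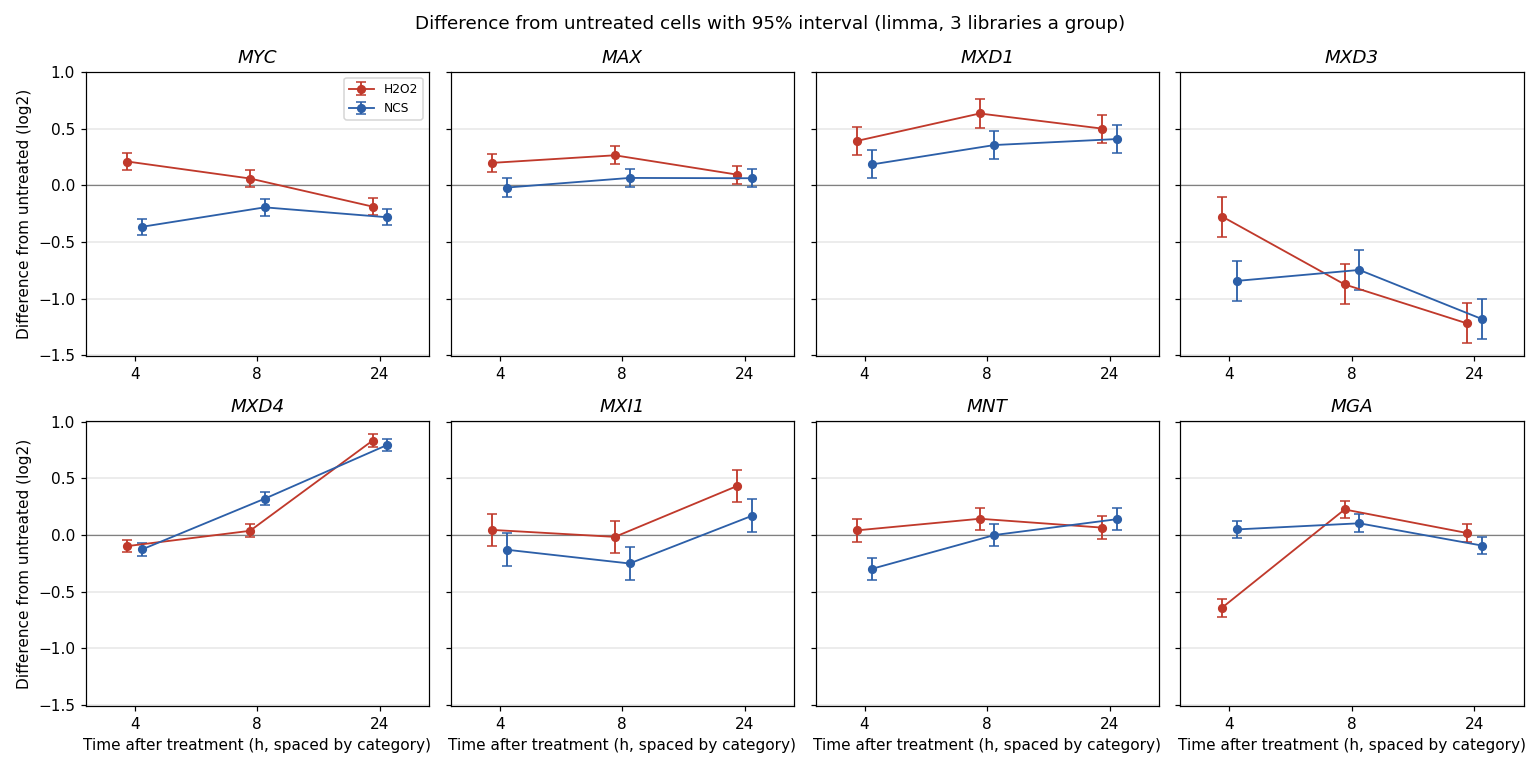
Each panel shows one network gene's difference from untreated cells (log2, y axis) at 4, 8 and 24 h (x axis, spaced by category), as the limma estimate with its 95% interval, H2O2 in red and NCS in blue. The courses of MYC and MGA are furthest apart at 4 h (0.21 against -0.36, and -0.64 against 0.049), and those of MXD4 and MXD3 meet at 24 h.

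Counted over the network, 3 members were higher and 3 lower after 4 h of H2O2, where 45.9% of all genes passed, 26.2% higher and 19.7% lower. At 8 h of H2O2 it was 4 higher and 1 lower, against 37.4% of all genes, 18.8% higher and 18.6% lower. At 24 h it was 3 higher and 2 lower, against 40.0%, with 20.2% higher and 19.9% lower. After NCS, 1 was higher and 4 lower at 4 h (17.2% of all genes, 7.47% higher and 9.72% lower), 2 higher and 3 lower at 8 h (23.9%, 10.5% and 13.3%), and 3 higher and 2 lower at 24 h (38.0%, 19.6% and 18.4%). Between the stresses, 6 members were higher in H2O2 and 1 lower at 4 h, where 44.4% of genes passed, 26.3% higher and 18.0% lower, with MGA the lower one. At 8 h it was again 6 and 1, with MXD4 the lower one (34.1%, 18.7% and 15.4%). At 24 h 2 members were higher in H2O2, MXI1 and MGA, and none lower (21.9%, 11.0% and 10.9%). A test of whether the course differed between the stresses passed for 5 members from 4 h to 24 h, where 39.4% of all genes did, and for 5 from 4 h to 8 h, where 32.7% did. The H2O2 and NCS comparisons with untreated cells share their 3 untreated libraries.

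The level of MYC relative to its partner and opponents can be read within a library as the rLog value of MYC minus that of the other gene, taken from its mean in untreated cells. Relative to MXD4, the change was 0.28, 0.31 and 0.34 in H2O2 at 4 h and -0.26, -0.23 and -0.22 in NCS at 4 h, when untreated libraries lay between -0.04 and 0.02. At 24 h the mean change was -1.02 (SD 0.02, n = 3) in H2O2 and -1.08 (SD 0.04, n = 3) in NCS, ratios of 0.493 and 0.474 to untreated cells. Those values were the lowest for this pair, and they join the fall of MYC to the rise of MXD4. Relative to MXD1, the change was negative in all 18 treated libraries, with means of -0.18 in H2O2 at 4 h and -0.69 in each stress at 24 h. Relative to MAX, it was 0.01 (SD 0.06, n = 3) in H2O2 at 4 h, since both genes rose, and -0.35 (SD 0.04, n = 3) in NCS at 4 h. Relative to MNT, it was 0.17 (SD 0.05, n = 3) and -0.07 (SD 0.03, n = 3) in the same groups, since MNT fell beside MYC in NCS. Relative to MXD3, the direction was the reverse, and MYC was 1.03 (SD 0.05, n = 3) higher at 24 h of H2O2. These are descriptions of RNA, without a test, and protein and dimers were not measured.

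**Figure D3:**
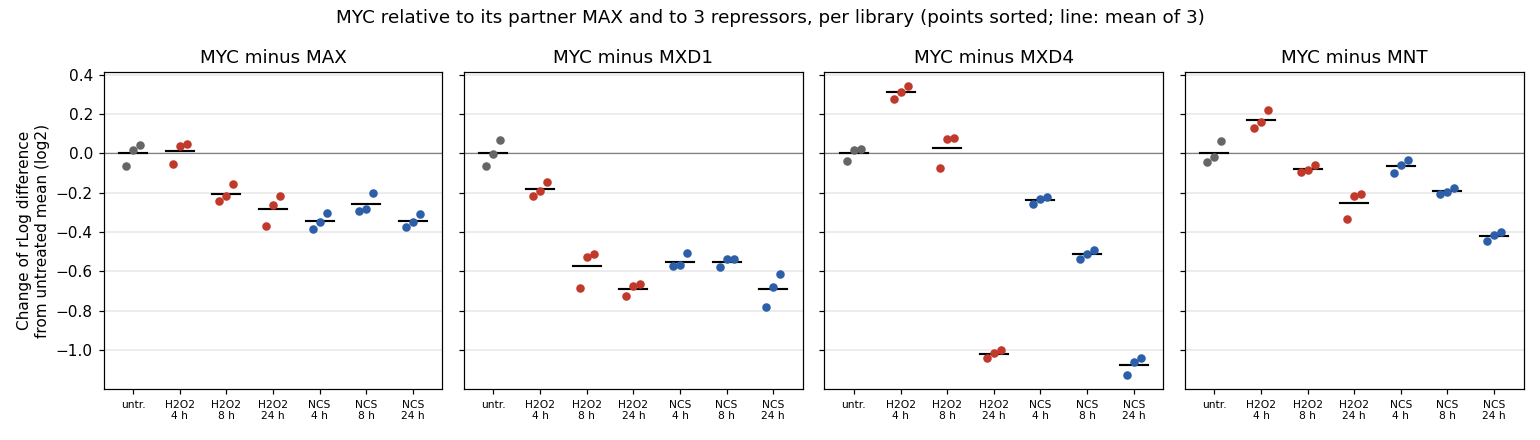
Each panel shows the rLog value of MYC minus that of MAX, MXD1, MXD4 or MNT in every library, as the change from the untreated mean (log2, y axis), by group (x axis), with 3 points sorted by value and the mean as a line. Relative to MXD4, MYC is above untreated cells in H2O2 at 4 h (0.28 to 0.34) and lowest at 24 h in both stresses (means -1.02 and -1.08).

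Other genes followed the members closely over the 21 libraries, among 11681 genes with a mean rLog of at least 5. The points are 3 libraries of 7 groups each and the genes were picked for their correlation, so it is a description. MYC was most like WAC (r = 0.929), SETD8 (r = 0.922), which encodes a histone H4 methyltransferase, and CDR2 (r = 0.921). MGA was most like CDK12 (r = 0.978), the kinase that supports elongation through long genes, and TNRC6B and TNRC6A (r = 0.971 and 0.966), scaffolds of microRNA silencing. CDK12 differed from untreated cells by -0.51 in H2O2 at 4 h and by 0.08 in NCS at 4 h. MXD3 was most like RNF26 (r = 0.968), KIF14 (r = 0.954), a mitotic kinesin, and WEE1 (r = 0.953), the kinase that holds CDK1 inactive. MXD4 was most like PGPEP1 (r = 0.978), TMEM150A (r = 0.977) and KCNMA1 (r = 0.976), a potassium channel. MXD1 was most like CBLB (r = 0.948), a ubiquitin ligase, and MXI1 was most like REEP5 (r = 0.934) and HIF1A (r = 0.919), the hypoxia factor. Within the network, r was highest between MAX and MXD1 (0.74) and lowest between MXD3 and MXD4 (-0.70).

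Genes that MYC is known to activate were mostly lower at 24 h in both stresses. Of all genes, 19.9% were lower and 20.2% higher in H2O2 at that time, and 18.4% and 19.6% in NCS. Of 36 ribosome biogenesis genes, 1 was higher and 24 lower after 24 h of H2O2 (median difference -0.26), and 0 were higher and 32 lower after 24 h of NCS (median -0.33), where the median over all genes was -3.42e-04 and -1.37e-04. NCL (nucleolin) fell by 0.57 in H2O2 and FBL (fibrillarin, the rRNA methylase) by 0.68 in NCS. The exception that rose in H2O2 was RRP12 (0.23), a factor in ribosome export. At 4 h, when MYC was on opposite sides of untreated cells, 12 were higher and 10 lower in H2O2 (median 0.04). In NCS at 4 h 8 were higher and 0 lower (median 0.06). The shares of all genes were 26.2% higher and 19.7% lower in H2O2, and 7.47% and 9.72% in NCS. At 8 h, 16 were higher and 3 lower in H2O2, against 3 higher and 13 lower in NCS. Between the stresses at 4 h, 7 of the 36 were higher in H2O2 and 14 lower, where 26.3% of all genes were higher and 18.0% lower. POLR1A, the largest subunit of RNA polymerase I, was 0.56 lower in H2O2 at 4 h. Between the stresses at 8 h, 28 were higher in H2O2 and 1 lower (median 0.16), where 18.7% of all genes were higher and 15.4% lower. The rises were led by NOLC1 (0.42) and NOP58 (0.38), both nucleolar proteins.

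Of 32 metabolic and translation genes tested, 4 were higher and 24 lower at 24 h in each stress. At 24 h 20.2% of all genes were higher and 19.9% lower in H2O2, and 19.6% and 18.4% in NCS. SHMT1, which makes one-carbon units, fell by 0.99 in H2O2 and 0.94 in NCS, and SLC19A1, the folate carrier, by 0.93 and 0.94. Members that rose in H2O2 at 8 h, the mitochondrial folate enzyme MTHFD2 (1.30) and the amino acid transporter SLC7A5 (1.08), are also known targets of ATF4. At 4 h of H2O2, 14 were higher and 5 lower, with HK2, a hexokinase, up by 0.84, whereas 2 were higher and 4 lower in NCS. Over all genes 26.2% were higher and 19.7% lower at 4 h of H2O2, and 7.47% and 9.72% in NCS. At 8 h, 9 were higher and 11 lower in H2O2 and 3 higher and 11 lower in NCS. Over all genes 18.8% were higher and 18.6% lower at 8 h of H2O2, and 10.5% and 13.3% in NCS. Of 15 cell cycle genes, 3 were higher and 12 lower at 8 h in each stress. Of the same genes, 2 were higher and 12 lower at 24 h of H2O2 (median -0.84), and 3 higher and 12 lower at 24 h of NCS (median -1.0). CCNE2 (cyclin E2) fell by 1.88 in both, while CCND2 (cyclin D2) rose by 1.06 and 0.85. Some genes of this list are also known targets of E2F factors, whose part was not tested.

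The corepressors through which the MXD proteins act were lower in part. Of 14 SIN3 and HDAC genes, 3 were higher and 8 lower at 24 h of H2O2 and 4 higher and 8 lower at 24 h of NCS, where 19.9% and 18.4% of all genes were lower. SIN3B, one of the scaffolds, rose by 0.32 and 0.22, and RBBP7, a histone-binding subunit, fell by 0.56 and 0.55. SIN3A fell by 0.53 in H2O2 at 4 h. Of 13 coactivators of MYC, none was higher and 10 were lower at 24 h in each stress, where 20.2% of all genes were higher and 19.9% lower in H2O2, and 19.6% and 18.4% in NCS. ACTL6A, a subunit of chromatin remodellers, fell by 0.51 in H2O2 and by 0.59 in NCS, and WDR5, which tethers MYC to chromatin, by 0.37 and 0.48. At 4 h of H2O2 CDK9, the elongation kinase, fell by 0.48 and TRRAP, the acetylase scaffold, by 0.45.

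**Figure D4:**
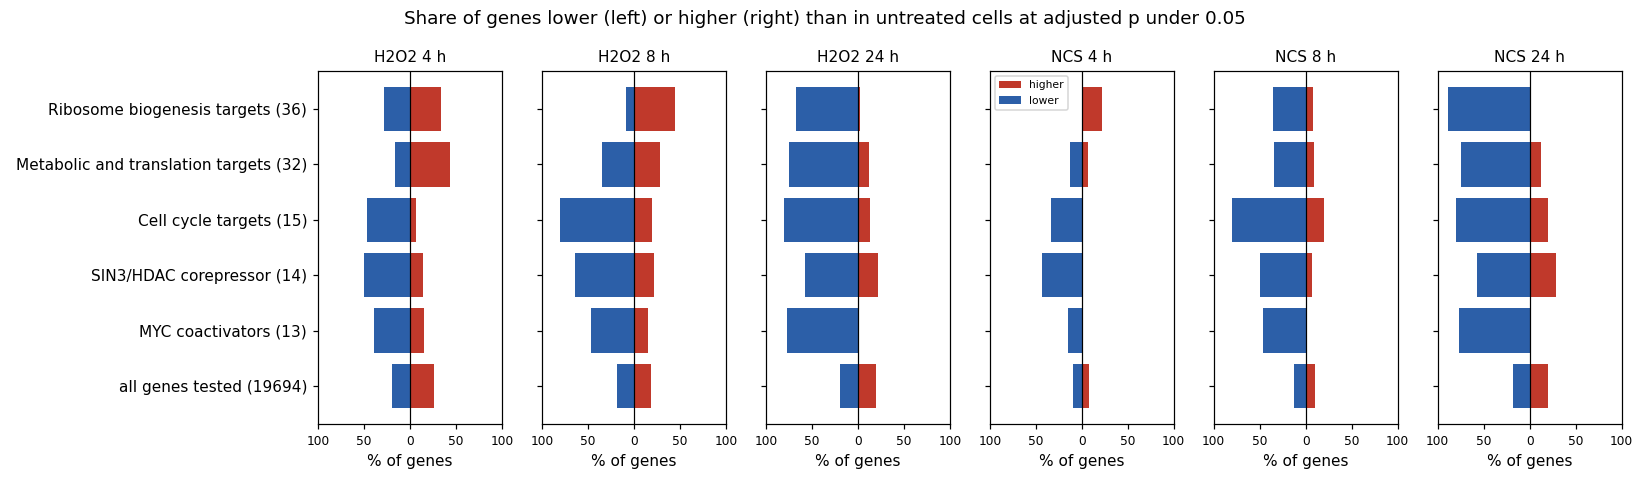
Bars show, for each treated group against untreated cells (panels), the share of genes (%, x axis) that were lower (blue, to the left) or higher (red, to the right) at an adjusted p under 0.05, for 5 gene lists and for all genes tested, with the number of genes tested in brackets. At 24 h the ribosome biogenesis list stands at 24 lower and 1 higher of 36 in H2O2 and 32 lower and 0 higher in NCS, while all genes are split nearly evenly.

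Of 13 genes for partners of MGA in PRC1.6, 2 were higher and 4 lower in H2O2 at 4 h, where 45.9% of all genes passed, 26.2% higher and 19.7% lower, with EHMT1 (a histone H3 methyltransferase) and L3MBTL2 lower by 0.50 and 0.26 and RYBP higher by 0.55. Of 14 germline genes that this complex is known to silence, 3 were higher in H2O2 at 4 h, among them STAG3 (0.34) and TAF7L (0.28), and 0 in any NCS group. None of the 14 passed at 8 h of H2O2, and 1 was higher at 24 h. In H2O2 at 4 h 26.2% of all genes were higher. Among markers of other cell types, 1 of 4 acinar, 1 of 4 islet and 2 of 5 immune and endothelial genes were higher. The last 2 were PECAM1 (0.33) and VWF (0.26). Mean rLog values were low, at 3.49 for STAG3, 2.66 for TAF7L, 2.11 for PECAM1 and 3.16 for VWF. The part of the cell type markers in the germline values was not tested.

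Genes that act on MYC itself were also read, at 4 h against 26.2% of all genes higher and 19.7% lower in H2O2, and 7.47% and 9.72% in NCS. Of 13 genes or transcripts of MYC-inducing signals, 6 were higher and 1 lower in H2O2 at 4 h, against 4 higher and 6 lower in NCS. HES1, a Notch target, was 0.33 higher in H2O2 and 0.20 lower in NCS, and NOTCH1 was 0.49 higher in NCS. The mean rLog value of HES1 was low, at 3.75. PVT1, the noncoding neighbour of MYC, rose by 0.52 at 8 h of H2O2 and 0.48 at 8 h of NCS, a time at which MYC did not pass in H2O2 and was lower in NCS. Of 12 genes for proteins that bind or degrade MYC mRNA, 2 were higher and 4 lower in H2O2 at 4 h and 0 higher and 7 lower in NCS. IGF2BP3, of a family that stabilizes MYC mRNA, fell by 0.33 in H2O2 and fell by 0.42 in NCS. Of 17 genes of MYC protein turnover, 8 were higher and 7 lower at 24 h of H2O2 (20.2% and 19.9% of all genes) and 6 and 7 at 24 h of NCS (19.6% and 18.4%). AURKA, a mitotic kinase that also protects MYC-family proteins, fell by 1.76 in H2O2 and fell by 2.09 in NCS, and KIAA1524 (CIP2A, an inhibitor of the phosphatase PP2A) by 1.44 and 1.5. FBXW7, the ubiquitin ligase subunit for MYC, rose by 0.49 at 8 h of H2O2 and 0.31 at 8 h of NCS.

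A list of 14 genes held those that MYC represses with MIZ1, and also ZBTB17, the gene of MIZ1 itself. Of these 14, 4 were higher and 5 lower in H2O2 at 4 h, where 26.2% of all genes were higher and 19.7% lower. In NCS it was 3 and 3 (7.47% and 9.72%). CDKN1A, the p21 inhibitor of cell cycle kinases, rose by 1.21 in H2O2 and 1.58 in NCS at 4 h, and GADD45A by 1.44 and 0.57. Both are also p53 targets. CDKN1B, which encodes p27, fell by 0.68 in H2O2 and by 0.78 in NCS. Of 9 other E-box factors and MLX-side genes tested, BHLHE40 had the largest rise, 1.89 in H2O2 at 4 h against 0.68 in NCS, and MITF fell by 0.41 and 0.25.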

How the data were processed

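Strand-specific mRNA libraries of hTERT-HPNE cells were sequenced from 7 groups of 3 biological replicates, 21 libraries in all. Whether replicates came from separate cultures handled on separate days is not given, so p-values measure the spread between these samples. Alignment was by HISAT2 and counting by htseq-count in Galaxy, and the authors ran DESeq2's rLog transformation on the gene counts. Versions are not given in the sources used here, and the submitters' processing notes name hg19. The deposited values are therefore on a log2 scale, and they are shrunken, so that differences understate fold changes, most of all at few reads. Depth cannot be read from them.

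The values were used as deposited. Of 23368 genes listed, 3674 were 0 in every library and were left out, also EIF4A1, a gene used in most cells, and 2 names occurred more than once. The other 19694 entered a single linear model of the 7 groups (limma 3.58.1, R 4.3.3), whose variances were moderated towards a trend on the mean, and p-values were adjusted by Benjamini-Hochberg over all of them. There were 9 comparisons between groups, 4 between successive times, and 2 tests of whether the change from 4 h to 8 or 24 h differed between H2O2 and NCS. The fit was tested on simulated data. Tables were made in Python 3.11.15 (pandas 2.3.3, numpy 2.4.6) and plots with matplotlib 3.10.9.

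The members and gene lists were chosen with earlier results of these data known. Named were all 9 members, the 3 genes most correlated with each member whose group means span 0.5 or more, up to 2 rises and 2 falls per list and comparison with ranges apart, and the cell type markers. RefSeq promoters (GRCh38.p14) and GENCODE v29 were used for sequences and overlaps only. PKM, MYCL and CCAT1 were not analysed here. The settings varied were the scaling (medians aligned, or quantile normalization), the filter (a mean rLog of at least 5, or none), the variance trend (none), the libraries (the compared groups alone, or one library left out), the replicate block, and log2 limits of 0.58 and 1.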

Additional observations from a re-analysis of the deposited data

Results flagged for a closer look

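For 6 of the 9 members the course over time differed between H2O2 and NCS in a test of the difference itself (limma, adjusted over all genes, 18 tests of members, 10 of which passed). From 4 h to 24 h, the change in H2O2 minus the change in NCS was -0.48 for MYC (adjusted p = 4.25e-07), -0.19 for MAX (adjusted p = 0.0101), -0.61 for MXD3 (adjusted p = 5.02e-04), -0.41 for MNT (adjusted p = 7.23e-05) and 0.80 for MGA (adjusted p = 2.39e-09). Over the same interval 39.4% of all genes passed. From 4 h to 8 h, it was -0.32 for MYC (adjusted p = 5.71e-05), -0.70 for MXD3 (adjusted p = 1.89e-04), -0.31 for MXD4 (adjusted p = 5.17e-06), -0.20 for MNT (adjusted p = 0.0299) and 0.81 for MGA (adjusted p = 5.66e-09), where 32.7% of all genes passed. In MYC, MXD3 and MNT the 4 h values set the stresses apart, with H2O2 above NCS, and in MGA with H2O2 below NCS. In MXD4 the 8 h values did, with NCS above H2O2. All of these tests rest on 3 libraries a group.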

How the results depend on the processing

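The differences of MYC kept their direction and their side of the threshold under all alternatives, with 3 exceptions. H2O2 against NCS at 24 h passed with a mean rLog of at least 5 (0.094, adjusted p = 0.0306) and with the replicate block (0.094, adjusted p = 0.0487), and lay between 0.068 and 0.11 with a library left out. H2O2 at 8 h against untreated cells lay between 0.029 and 0.10 with a library left out and passed once. With a log2 difference over 1, the number of members passing in each stress was 0, 0 and 1 (4, 8 and 24 h), and 0 throughout between the stresses. With a log2 difference over 0.58 it was 1, 2 and 2 in H2O2, 1, 1 and 2 in NCS, and 1, 0 and 0 between the stresses. Without a log2 limit, at an adjusted p under 0.05 (limma), the number between the stresses at 24 h was 2 in the main fit. It was 1 under quantile normalization and without a filter, and 0 to 1 with a library left out. At 8 h it was 4 to 7 with a library left out, and 4 without H2O2 replicate 1. With library medians aligned, MYCN passed 5 comparisons, at -0.015 in H2O2 at 4 h and -0.023 in NCS at 8 h with the same sign, and with the other sign at -0.018 in H2O2 at 24 h, -0.025 between the stresses at 24 h and 0.021 between them at 8 h, since shifting a library moves genes at the floor with it.

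Whether the shared replicate numbers pair the samples is not known, and the main fit did not pair them. No comparison had every same-number correlation over 0.1 (range -0.113 to 0.213), but with 3 libraries a group this cannot exclude pairing. In 3 comparisons (NCS at 24 h against untreated cells, and H2O2 against NCS at 8 h and at 24 h) each library of 3 pairs correlated best with its own number, a hint from the data only. With the replicate block, MAX in H2O2 at 24 h (0.096, adjusted p = 0.0395) and MXI1 in NCS at 24 h (0.17, adjusted p = 0.0292) also passed, and MGA between the stresses at 24 h did not (0.11, adjusted p = 0.0536). Without counts, neither depth nor a detection limit could be set.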
